A study of Homo sapiens with 4 samples.

Results

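The genes described here are 45 genes of the cell cycle and mitosis, chosen by symbol from a fixed list that runs from the G1 cyclins to the kinetochore, and all 45 were found in both deposited tables among 27685 genes. The RNA-seq libraries came from HT-29, a human line established from a colorectal adenocarcinoma, expressing either a control vector or N-terminally Myc-tagged TRIM40, in 2 independent experiments with 1 library per condition in each. The Myc-TRIM40 cells were labelled as TRIM40 overexpression and the control cells as WT, neither received a treatment, and the study describes stable expression from a retroviral vector with puromycin selection, without saying whether the cells were 1 clone or a pool. The labels do not say more of how the experiments differed. Reads of TRIM40 numbered 0 in each control, and 272646 (experiment 1) and 110665 (experiment 2) with Myc-TRIM40.

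A dividing cell enters the cycle when cyclin D with CDK4 or CDK6, and then cyclin E with CDK2, release E2F factors from the retinoblastoma protein. E2F factors switch on the MCM helicase, its loaders CDC6 and CDT1 and the enzymes of nucleotide and DNA synthesis, and later in the cycle FOXM1 and other factors switch on the mitotic kinases, cyclin B and the kinetochore and spindle genes. CDKN1A and CDKN1B, which encode p21 and p27, restrain the CDKs, and CDKN1A is a classical target of p53, of which HT-29 cells carry a mutant form. Bulk RNA pools the cells of all phases, so fewer cells in a phase and less RNA per cell in it cannot be told apart.

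Promoters of many cell cycle genes hold short elements through which their timing in the cycle is set. The CHR element is bound by the DREAM and MYB-MuvB complexes in G2/M genes, the E2F site by E2F factors in G1/S genes, and the CCAAT box by NF-Y. RefSeq promoters (GRCh38.p14, 250 bases before to 50 after the start) were matched for 36 of 45 genes, and the letters were searched on both strands, with any overlap between motifs allowed. TTTGAA (CHR) was in 12 of 36 promoters, 33.3%, against 15.4% of 27305 promoters. An E2F site, spelled TTCCCGC or TTCGCGC, and also as TTGCCGC or as TTGGCGC, was in 16, 44.4%, against 13.1%, and CCAAT was in 25, 69.4%, against 35.7%. By role, CHR letters were in 6 of 11 promoters of mitotic regulators and in 5 of 7 of spindle and chromosome genes, and in 0 of 6 of replication licensing, whose promoters held E2F letters in 6 of 6. The promoters of 3 genes the results turn on are shown up to the start: TOP2A with CHR and CCAAT letters (chr17:40417897-40418146, minus strand), PCNA with E2F and CCAAT letters (chr20:5126623-5126872, minus strand) and CDKN1A, which holds none of the 3 (chr6:36678464-36678713, plus strand). Capitals mark the CHR, E2F and CCAAT letters on either strand.
TOP2A: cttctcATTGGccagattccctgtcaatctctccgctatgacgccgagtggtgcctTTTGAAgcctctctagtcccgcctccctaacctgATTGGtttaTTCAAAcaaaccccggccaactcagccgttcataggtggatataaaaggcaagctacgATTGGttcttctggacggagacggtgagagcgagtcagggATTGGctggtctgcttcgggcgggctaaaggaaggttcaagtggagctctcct
PCNA: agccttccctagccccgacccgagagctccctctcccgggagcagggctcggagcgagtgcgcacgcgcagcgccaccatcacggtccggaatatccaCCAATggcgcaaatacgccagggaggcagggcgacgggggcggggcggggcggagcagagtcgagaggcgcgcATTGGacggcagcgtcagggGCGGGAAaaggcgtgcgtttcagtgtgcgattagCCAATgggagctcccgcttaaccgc
CDKN1A: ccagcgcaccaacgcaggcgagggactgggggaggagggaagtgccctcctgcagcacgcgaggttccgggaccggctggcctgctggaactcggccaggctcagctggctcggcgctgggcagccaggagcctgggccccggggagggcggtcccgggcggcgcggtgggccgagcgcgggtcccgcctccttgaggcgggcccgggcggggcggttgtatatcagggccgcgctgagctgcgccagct

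All 45 genes were expressed. FPKM here is fragments per kilobase of transcript, scaled to library size. The mean of each gene over the 4 libraries ranged from 1.75 FPKM for E2F2 to 274 FPKM for PCNA. Of the 45 genes, 40 were above 10 FPKM. After PCNA, the sliding clamp of DNA polymerases, the highest means were those of the helicase subunit MCM7 at 194 FPKM, the thymidylate synthase TYMS at 147 FPKM and the G1 kinase CDK4 at 118 FPKM. The lowest after E2F2 were CDK6 at 5.69 FPKM, CCNE2 at 6.41 FPKM, the kinetochore motor CENPE at 6.53 FPKM and CDKN1A at 8.21 FPKM. The read estimate of a single gene in a single library lay between 480 and 43242. Below, each level is given with control vector first and Myc-TRIM40 after it.

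None of the 45 genes passed the gene-wise test of Myc-TRIM40 against control vector. By edgeR's quasi-likelihood test, blocked on the experiment and with Benjamini-Hochberg adjustment, 0 had an adjusted p under 0.05 in either direction, where 0.0404% of the 14868 genes tested were called higher and 0.0202% lower. DESeq2, which called 0.303% of genes higher and 0.0605% lower, also called 0 of the 45, and so did limma, which called 0.0202% higher and 0.0% lower, and edgeR without the block, which called 0.0% each way. The lowest adjusted p was 0.888. At an unadjusted p under 0.05, 1 of 45 was higher, CDKN1A, and 0 were lower, against 3.41% and 1.13% of all genes tested. DESeq2 and limma also put 1 higher and 0 lower at that level, where they put 2.37% and 1.27% (DESeq2) and 3.95% and 0.901% (limma) of all genes, and edgeR without the block put 0 of 45, where it put 0.861% and 0.168%. The unadjusted p of CDKN1A was 0.0350 in edgeR's blocked test, 0.0685 without the block, 0.0572 with upper-quartile normalization, 0.0986 without the filter and 0.128 with its transcript with most reads. It was 0.0177 in DESeq2, 0.0389 in limma and 0.043 in edgeR with the trend on transcript length, described below, removed. The median fitted log2 fold change was -0.07 over the 45 genes, 0.01 with limma on FPKM + 1, and 0.04 over all genes tested. For 43 of 45 genes the 95% interval of the fitted change lay within 2-fold of no change in either direction. That was so for 70.6% of all genes tested, which include genes with few reads and were not matched for level. The exceptions among the 45 were CDKN1A and MKI67, the gene of the Ki-67 proliferation antigen. Their intervals ran from 0.08 to 1.68 and from -0.25 to 1.13 on the log2 scale.

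**Figure D1:**
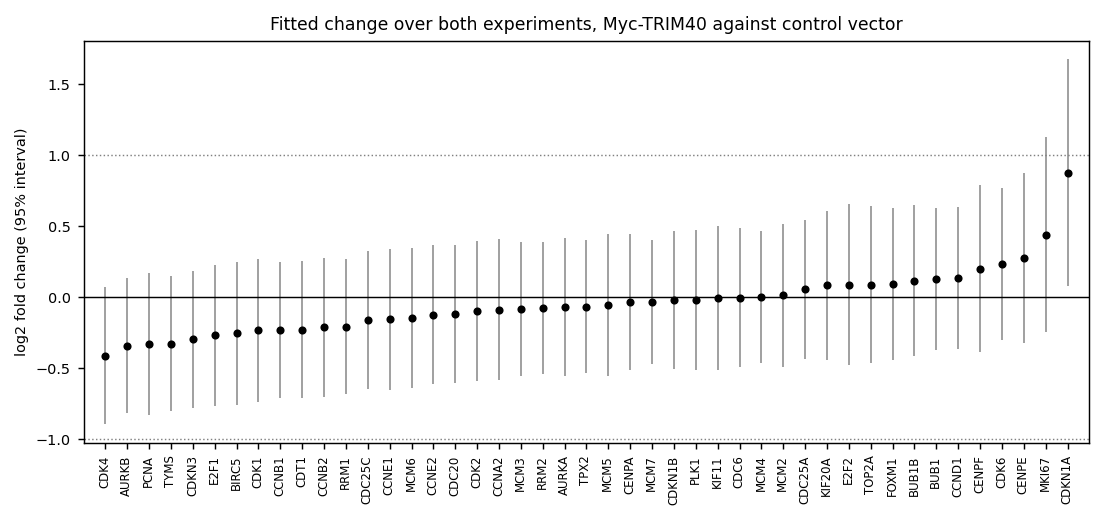
Fitted log2 fold change of each of the 45 genes over both experiments (vertical axis, Myc-TRIM40 against control vector), ordered from lowest to highest, with its 95% interval as a bar and dotted lines at a 2-fold change. The interval of CDKN1A alone lies off 0, and those of CDKN1A and MKI67 alone cross a dotted line.

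No gene of the list changed in common. At a threshold of 1.5-fold on FPKM + 1, 0 of 45 were higher and 0 lower in both experiments, against 0.457% and 0.0874% of the genes tested. In experiment 1, 1 gene was higher (CDKN1A) and 0 were lower, where 2.78% and 0.659% of genes tested were. In experiment 2, 4 genes were higher (MKI67, CENPE, CENPF and TOP2A) and 0 were lower, where 8.54% and 2.88% of genes tested were. On read counts scaled to library size with TMM factors (CPM), as CPM + 1, the counts were 1 and 3 higher, without TOP2A, against 3.9% and 8.66% of genes, and 0 lower in each, against 0.753% and 5.56%, with 0 in both, against 0.632% higher and 0.128% lower. On CPM, both Myc-TRIM40 libraries lay above both control libraries for 1 of 45 genes, CDKN1A, and below them for 3, AURKB, CDC20 and E2F1, against 11.0% and 9.67% of all genes tested. On FPKM, CDKN1A and CCND1 lay above and AURKB below, where 15.2% and 6.48% of all genes did. The smallest two-sided p of an exact permutation test on 4 libraries, with the pairing by experiment ignored, is 0.333. With labels exchanged only within each experiment it is larger, and no gene was tested in either way.

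What the list did share was a small, even shift in experiment 1. There 40 of 45 genes were lower in Myc-TRIM40 cells, by any size, on the log2 ratio of CPM + 1, against 49.7% of the 14868 genes tested, and 5 were higher, against 50.2%. The 40 lay between -0.32 and 0, the median over the 45 genes was -0.17 against 0.00 over all genes tested, and the middle of the list, from the lower to the upper quartile, ran from -0.20 to -0.09 against -0.11 to 0.15. On FPKM + 1, 39 were lower and 6 higher, against 43.1% and 56.8% of genes tested, with a median of -0.13 against 0.03. The 5 higher on CPM were the CDK inhibitors CDKN1A and CDKN1B, the cyclin E gene CCNE1, the centromeric histone gene CENPA and the spindle checkpoint kinase BUB1, and on FPKM + 1 also CCND1. In experiment 2 the list was split, with 23 of 45 lower and 22 higher, against 47.9% and 52.0% of genes tested, and a median of -0.01 against 0.02. On FPKM + 1, 15 of 45 were lower and 30 higher in experiment 2, against 38.2% and 61.7% of genes tested, with a median of 0.12 against 0.08. In both experiments together 20 of 45 were lower and 2 higher on CPM, against 26.3% and 28.6% of genes tested, and on FPKM + 1 13 were lower and 4 higher, against 18.8% and 37.3%. These counts rest on 1 library per condition and on genes that share those libraries, so they describe the libraries and carry no p.

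**Figure D2:**
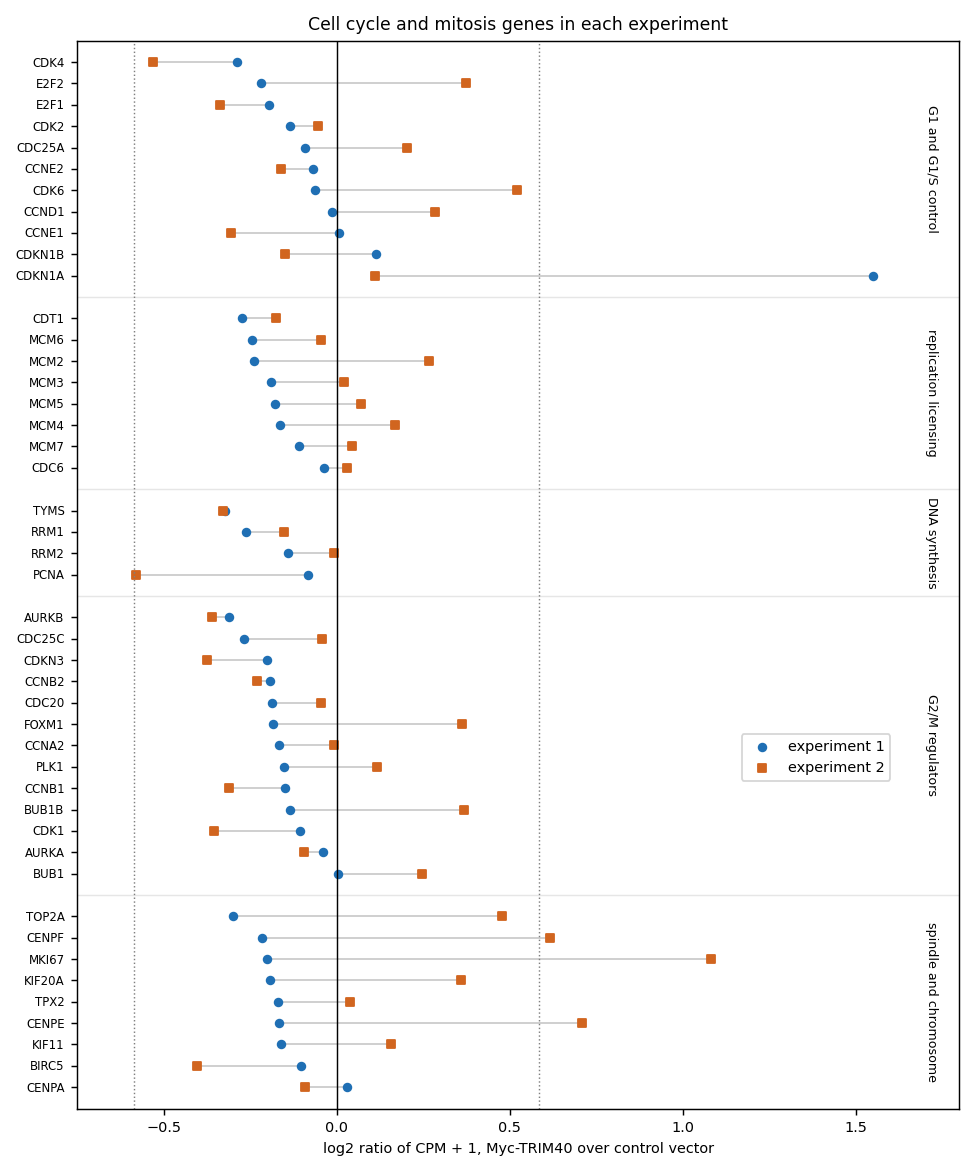
Log2 ratio of CPM + 1 of Myc-TRIM40 over control vector for each of the 45 genes (rows, grouped by role), with circles for experiment 1, squares for experiment 2 and dotted lines at 1.5-fold. In experiment 1 the circles crowd just left of 0, with CDKN1A alone far to the right at 1.55, while the squares of experiment 2 spread from -0.58 (PCNA) to 1.08 (MKI67).

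CDKN1A (Entrez gene 1026, chr6:36644237-36655116 in hg19) had the largest fitted change of the list. It stood at 4.57 and 14.6 FPKM in experiment 1 and at 6.22 and 7.40 FPKM in experiment 2. Both Myc-TRIM40 libraries were above both controls, with a ratio of FPKM of 3.21 in experiment 1 and 1.19 in experiment 2. The fitted log2 fold change was 0.88 (standard error 0.35; 1.55 from experiment 1 alone and 0.11 from experiment 2 alone), with an unadjusted p of 0.0350 and an adjusted p of 0.888 in edgeR's test, and between 0.804 and 1 under the alternatives, DESeq2 included. Of its 5 annotated transcripts NM_000389 took most reads, 549 against 1843 in experiment 1 and 862 against 1025 in experiment 2. Of 15 other p53 target genes, 0 passed edgeR's test at an adjusted p under 0.05 and 2 had an unadjusted p under 0.05 (both higher, against 3.41% of all genes tested), while 13 of 15 were above 0 in experiment 1, against 50.2% of all genes, and 7 of 15 in experiment 2, against 52.0%, with medians of 0.18 and -0.18 on the log2 ratio of CPM + 1. BBC3, which encodes the pro-apoptotic protein PUMA and was singled out with its values known, stood at 1.81 and 9.73 FPKM in experiment 1 and at 6.12 and 5.45 FPKM in experiment 2. TRIM40 reads were also more numerous in experiment 1 than in experiment 2, and the part of that difference in CDKN1A was not tested.

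Among the other genes of G1 and the G1/S transition, CDK4 had the lowest fitted change of the 45 genes, -0.41 (standard error 0.21, adjusted p = 0.888 in edgeR). It stood at 111 and 92.8 FPKM in experiment 1 and at 153 and 115 FPKM in experiment 2, lower within each experiment, though the control of experiment 1 lay below the Myc-TRIM40 library of experiment 2. CDK4 (chr12:58141510-58146230) overlaps TSPAN31, so its reads may be shared with that gene. E2F1, the factor that drives S-phase genes, stood at 38.0 and 34.0 FPKM in experiment 1 and at 44.3 and 38.2 FPKM in experiment 2. Its FPKM was lower within each experiment, and the conditions overlapped by a narrow margin. CCND1, the gene of cyclin D1, stood at 40.9 and 41.5 FPKM in experiment 1 and at 36.8 and 48.9 FPKM in experiment 2. It was the one G1 cyclin whose Myc-TRIM40 libraries both lay above the controls on FPKM, and on CPM + 1 its log2 ratio was -0.01 in experiment 1 and 0.28 in experiment 2. The remaining 7 genes, CCNE1, CCNE2, CDK2, CDK6, CDKN1B, CDC25A and E2F2, had fitted changes between -0.16 (CCNE1) and 0.23 (CDK6).

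The 8 genes of replication licensing, MCM2 to MCM7, CDC6 and CDT1, load and form the replicative helicase. In experiment 1, 8 of 8 were lower, against 49.7% of all genes tested. Their log2 ratios of CPM + 1 ran from -0.27 (CDT1) to -0.04 (CDC6). In experiment 2, 2 of 8 were lower on CPM + 1, against 47.9%, and 1 of 8 on FPKM + 1, against 38.2%. CDT1 stood at 35.1 and 29.6 FPKM in experiment 1 and at 27.1 and 26.1 FPKM in experiment 2, with a fitted change of -0.23. MCM6 stood at 44.6 and 38.5 FPKM in experiment 1 and at 49.99 and 52.9 FPKM in experiment 2. MCM3 stood at 103 and 92.2 FPKM in experiment 1 and at 88.0 and 97.4 FPKM in experiment 2. For both MCM genes the conditions overlapped and the experiments went opposite ways on FPKM. The fitted changes of all 8 lay between -0.23 and 0.01.

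The 4 genes of DNA synthesis were each lower in both experiments on CPM + 1, where 26.3% of all genes tested were. Their medians were -0.20 and -0.24, though on FPKM + 1 RRM2 was 0.12 higher in experiment 2. PCNA stood at 218 and 211 FPKM in experiment 1 and at 385 and 280.5 FPKM in experiment 2, so the control library of experiment 2 was the highest and the other 3 were closer together. TYMS stood at 138 and 113 FPKM in experiment 1 and at 181 and 157 FPKM in experiment 2. RRM1, the large subunit of ribonucleotide reductase, stood at 73.4 and 62.6 FPKM in experiment 1 and at 91.2 and 89.1 FPKM in experiment 2. For each of the 3 genes the gap between the experiments left the conditions overlapping. The fitted changes were -0.33 for PCNA, -0.33 for TYMS and -0.21 for RRM1, each with a 95% interval that included 0, and RRM2 had -0.07. PCNA overlaps PCNA-AS1, which had at most 20 reads in a library, and TYMS overlaps ENOSF1, which had between 4279 and 4907 reads.

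Of the 13 genes that drive or check mitotic entry and exit, 12 were lower in experiment 1 and 9 in experiment 2 on CPM + 1. The medians were -0.17 and -0.04, and 49.7% and 47.9% of all genes tested were lower. On FPKM + 1, 12 and 5 were lower, against 43.1% and 38.2%. With the length trend described below removed, 3 of 13 were lower in experiment 2, against 49.1%, with a median of 0.11. AURKB (chr17:8108049-8113944), the kinase of the chromosomal passenger complex, had nearly the same levels in the 2 experiments. It stood at 56.7 and 46.9 FPKM in experiment 1 and at 57.0 and 47.8 FPKM in experiment 2. Both controls lay above both Myc-TRIM40 libraries, and the fitted change was -0.34 (standard error 0.21, unadjusted p = 0.137 and adjusted p = 0.888 in edgeR, the latter between 0.804 and 1 under the alternatives). With the trend on transcript length removed, as described below, its fitted change was -0.13 and its log2 ratios were -0.29 in experiment 1 and 0.04 in experiment 2. CDKN3, a phosphatase that acts on CDKs, stood at 26.4 and 23.2 FPKM in experiment 1 and at 60.4 and 50.6 FPKM in experiment 2. CDK1, the mitotic kinase, stood at 43.9 and 42.0 FPKM in experiment 1 and at 99.0 and 84.6 FPKM in experiment 2. For CDKN3 and CDK1 the experiments lay further apart than the conditions, with a log2 ratio of the 2 controls of 1.25 for each. FOXM1, the transcription factor of the G2/M program, stood at 54.3 and 49.0 FPKM in experiment 1 and at 29.7 and 41.7 FPKM in experiment 2, in opposite directions, and it overlaps ITFG2 and RHNO1.

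The 9 genes of the spindle, kinetochore and chromosomes went different ways in the 2 experiments. In experiment 1, 8 of 9 were lower on CPM + 1, against 49.7% of all genes tested, with a median of -0.17. In experiment 2, 2 of 9 were, against 47.9%, with a median of 0.36, and 1 of 9 on FPKM + 1, against 38.2%. MKI67 (chr10:129894925-129924468) stood at 57.0 and 50.7 FPKM in experiment 1 and at 15.8 and 36.9 FPKM in experiment 2. The control library of experiment 2 was the one that stood apart, and its log2 ratio of CPM + 1 to the other control was -1.73. TOP2A, the topoisomerase that untangles chromosomes, stood at 76.4 and 63.6 FPKM in experiment 1 and at 54.5 and 82.8 FPKM in experiment 2. CENPE stood at 6.68 and 5.96 FPKM in experiment 1 and at 4.85 and 8.63 FPKM in experiment 2, and CENPF, another large kinetochore protein, at 22.5 and 19.8 FPKM and at 14.4 and 24.1 FPKM. In these 4 genes the control library of experiment 2 was the lowest of the 4 libraries. BIRC5, the gene of survivin, had its highest level in that library and stood at 38.8 and 37.0 FPKM in experiment 1 and at 71.2 and 58.7 FPKM in experiment 2.

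**Figure D3:**
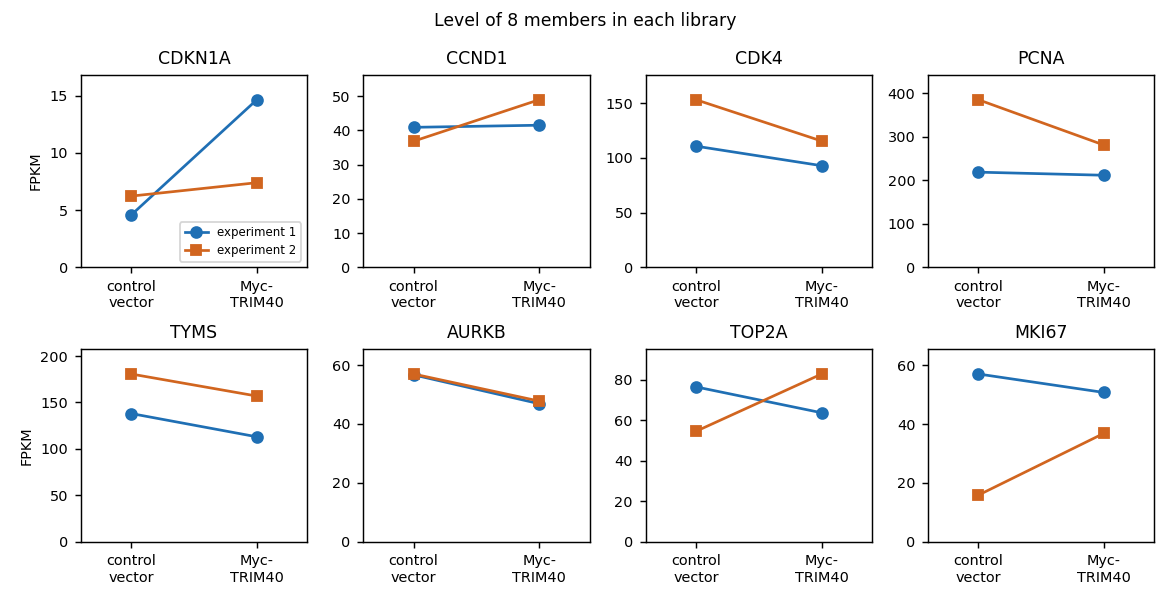
FPKM of 8 of the 45 genes in each of the 4 libraries (vertical axes from 0), with a line joining the control vector and Myc-TRIM40 library of each experiment. The lines of AURKB nearly coincide, that of CDKN1A is steep in experiment 1 alone, and those of TOP2A and MKI67 slope down in experiment 1 and up in experiment 2.

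In experiment 2 the ratios were ordered by transcript length. Over the 45 genes the Spearman correlation between the log2 ratio of CPM + 1 and the length of the transcript with most reads was 0.83 in experiment 2 and -0.06 in experiment 1. Over all 14868 genes tested it was 0.64 and 0.08. These correlations are across genes of the same libraries and carry no p. Of the 9 genes with a transcript of at most 2000 bases, among them CDKN3, AURKB, PCNA and TYMS, 0 were above 0 in experiment 2, where 20.3% of all such genes were. Of the 9 genes above 4000 bases, among them MKI67 at 12495 bases, CENPF, CENPE and TOP2A, 9 were above 0, where 86.0% of all such genes were. The medians of these 2 length classes were -0.33 and 0.48 for these genes and -0.29 and 0.32 for all genes. In experiment 1 the same classes had medians of -0.19 and -0.17 for these genes and -0.02 and 0.02 for all genes.

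The length pattern was also seen between the control libraries, where the log2 ratio of experiment 2 to experiment 1 had a Spearman correlation of -0.69 with length over the 45 genes, and it was -0.27 between the Myc-TRIM40 libraries. Over all genes tested these correlations were -0.51 and -0.19. The absolute log2 ratio between the 2 controls had a median of 0.44 over the 45 genes, above the medians of 0.17 and 0.23 between the conditions within experiments 1 and 2. Over all genes tested these medians were 0.39, 0.13 and 0.25. The median between the controls was thus the largest of the 3 over these genes and over all genes alike, so that order was not particular to the list. With the trend of all genes on length taken out of each experiment, a setting added once the data had been seen, 0 of 45 were 1.5-fold higher and 0 lower in experiment 2, against 5.19% and 2.25% of genes tested, 1 was higher (CDKN1A) and 0 lower in experiment 1, against 3.82% and 0.76%, and 0 in both, against 0.531% and 0.114%. In experiment 2 the log2 ratios then lay between -0.36 (BIRC5) and 0.35 (MKI67). The fitted changes of TOP2A, CENPF and CENPE turned to -0.11, -0.14 and -0.01, and that of MKI67 became 0.06. Those of several shorter genes were smaller in size too, at -0.13 for AURKB, -0.02 for CDKN3 and -0.12 for PCNA. TYMS then stood at -0.16, CDK1 at -0.12 and CDK4 at -0.31 (unadjusted p = 0.031 and adjusted p = 0.879 in edgeR). The fitted changes of RRM1, MCM6, MCM3 and CDKN1A grew in size, to -0.25, -0.23, -0.12 and 0.96. In experiment 1, 41 of 45 were then lower, against 49.6% of genes tested, with a median of -0.18. In experiment 2, 22 were, against 49.1%, with a median of 0.01, and 20 were in both, against 26.5%. By role, 6 of 11 G1 and G1/S genes, 5 of 8 licensing genes and 4 of 4 DNA synthesis genes were then lower in experiment 2. Of mitotic regulators 3 of 13 were, and of spindle and chromosome genes 4 of 9. The medians were -0.08, -0.03, -0.13, 0.11 and 0.10.

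**Figure D4:**
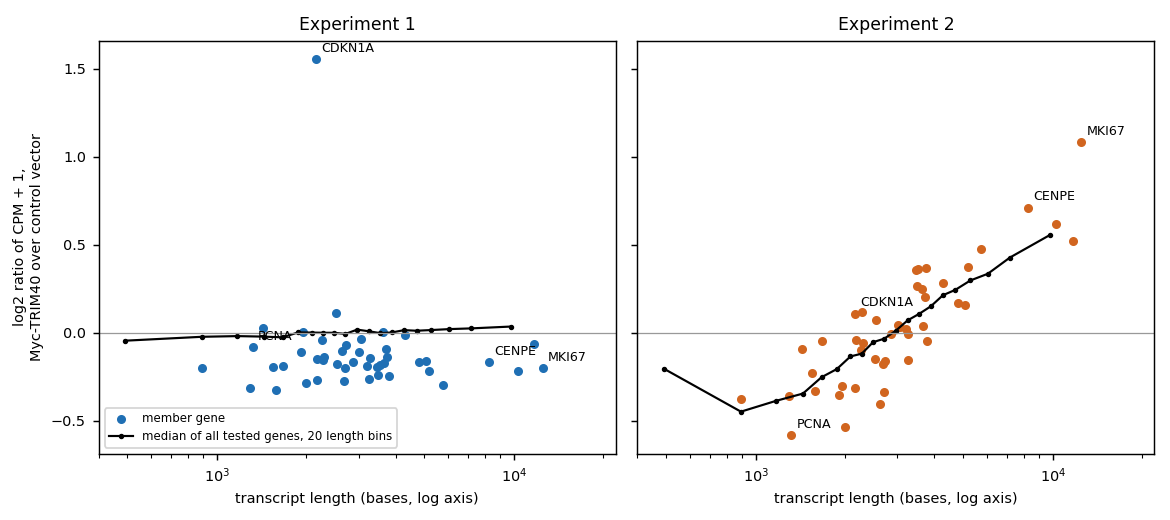
Log2 ratio of CPM + 1 of Myc-TRIM40 over control vector (vertical axis) against transcript length in bases (log axis) for the 45 genes, with the median of all tested genes in 20 length bins as a line. In experiment 1 the line is flat and most genes lie just under it, and in experiment 2 the genes climb along the line from PCNA at -0.58 to MKI67 at 1.08.

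Other genes of the same processes, from lists that hold none of the 45, also gave no call. Of 103 genes tested in 4 such lists, 0 had an adjusted p under 0.05 in edgeR, 0 were higher and 3 lower at an unadjusted one, against 3.41% and 1.13% of all genes tested, and 0 differed 1.5-fold the same way in both experiments on FPKM + 1. In experiment 1, 31 of 34 other replication genes, 32 of 38 other mitotic genes, 10 of 16 other RB, E2F and DREAM genes and 10 of 15 other cyclins and CDK inhibitors were lower, with medians of -0.15, -0.10, -0.07 and -0.07 on CPM + 1, where 49.7% of all genes tested were lower. In experiment 2 the counts were 19, 15, 5 and 12, where 47.9% of all genes were, and on FPKM + 1 they were 27, 26, 9 and 10 in experiment 1, against 43.1%, and 13, 11, 3 and 10 in experiment 2, against 38.2%.

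Of the 45 genes, 23 had more than 1 annotated transcript. A transcript's share of its gene's reads moved by at least 10 percentage points in the same direction in both experiments in 1 of the 23, CENPE, against 11.7% of 8748 genes with several transcripts. That rule was set with the values of CENPE known. NM_001813, of 8612 bases, took 5.84% of CENPE reads with control vector and 52.7% with Myc-TRIM40 in experiment 1, and 22.4% and 49.8% in experiment 2. The rest went to NM_001286734, of 8249 bases. These shares are estimates from coverage and have no error of their own.

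Set against the promoter letters shown above, the log2 ratios of CPM + 1 in experiment 1 had a median of -0.19 for the 12 genes with CHR letters and -0.17 for the 24 without, of -0.19 and -0.17 for the 16 with and 20 without E2F letters, and of -0.17 and -0.22 for the 25 with and 11 without CCAAT. In experiment 2 the medians were 0.04 and -0.01 for CHR, -0.07 and 0.11 for E2F and -0.01 and 0.11 for CCAAT. These are descriptions of letters in a window, and no difference between them was tested.

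Over the whole series, totals ranged from 60954602 to 67424698 reads per library, and the share of the 50 most abundant genes was 11.4% to 14.6%, highest in the control of experiment 2. Of 10 markers of colon epithelium, 8 were above 1 FPKM in every library, and CDX1 and CDH17 were not, and 0 of the 10 passed edgeR's test. Of 11 markers of other cell types, 1 was, LYZ, at between 1356 and 1860 FPKM, and PTPRC, CD3E, COL3A1 and DCN were at or near 0. The summed level of the 10 markers other than LYZ was 1.503 and 2.73 FPKM in experiment 1 and 1.095 and 1.345 FPKM in experiment 2, higher with Myc-TRIM40 in each. Of the 11 markers, 6 were tested, LYZ among them, and 0 passed edgeR's test. For 11 of the 45 cell cycle genes an overlapping gene also had reads.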

How the data were processed

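Libraries from HT-29 cells with control vector or Myc-TRIM40 were analysed, 2 for each condition and 1 of each in an experiment, and the experiment number in the labels pairs them. For each RefSeq transcript the authors deposited whole-number read estimates (an estimated count, not normalized), the FPKM and, for experiment 2, the TPM. Transcript lengths and positions are other deposited values. The submitters' processing notes name HISAT2 2.1.0, StringTie 1.3.4d and hg19, without their roles, and whether reads were counted by strand is not given in the sources used here. For experiment 1, TPM was derived from FPKM.

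The 63714 transcripts were summed to 27685 genes. The test was edgeR 4.0.16 (glmQLFit and glmQLFTest, R 4.3.3) with TMM and the experiment as a block, on the 14868 genes that passed filterByExpr, which left 1 residual degree of freedom. It was tested on simulated data. The deviations of libraries with the same number from the means of their conditions had a correlation of 0.42 over these genes. The p-values measure only the spread between these libraries, and in edgeR's test that spread was largely shared across genes. The shared spread had a median of 7.4 prior degrees of freedom, against the 1 residual degree of freedom. The standard errors, intervals and p-values of single genes in edgeR's test therefore rest mostly on that shared spread. Ratios within an experiment used a pseudocount of 1, which understates changes of low genes. FPKM was used as deposited, and CPM used TMM factors over all 4 libraries. Members and lists were chosen with earlier results of these data known. Genes given in every library were the 3 largest fitted changes of each role, the 6 largest differences between experiments on FPKM + 1, and MKI67, PCNA, CCND1 and CDKN1A, and other genes named were singled out with their values known. Alternatives were DESeq2 1.42.0, limma 3.58.1, other normalizations, filters, pseudocounts, thresholds and scales, no block, 1 transcript per gene, overlapping genes left out, each experiment left out, and, after seeing the data, the trend on length removed.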

Additional observations from a re-analysis of the deposited data

How the results depend on the processing

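No count of genes that passed the gene-wise test differed from 0 under any alternative run, in either direction: no replicate block, DESeq2, no filter, upper-quartile normalization, limma on log2(FPKM + 1), the transcript with most reads, overlapping members left out and, chosen after seeing the data, the trend on transcript length removed. With no replicate block the paired design was ignored, 0 genes were higher and 0 lower, and 0 had an unadjusted p under 0.05. The median fitted log2 fold change, -0.07, lay between -0.10 (median-centred) and 0.01 (limma). Leaving out an experiment gave -0.01 and -0.17, and the count of genes changed 1.5-fold, 0 in common, ranged from 1 to 4 higher with 1 experiment alone. It was 0 with a pseudocount of 0.1, a threshold of 2, TPM, CPM, median-centred ratios and a mean FPKM of at least 1. In experiment 2, 23 of 45 were below 0 on CPM + 1, 15 on FPKM + 1 and 21 once FPKM ratios were centred.

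Of 133 fitted values for 19 named genes under 7 alternatives that keep both experiments, 4 turned direction and 0 passed the threshold. CENPE turned to -0.52 with its transcript with most reads, NM_001286734. That transcript took 94.2% of CENPE reads with control vector and 47.3% with Myc-TRIM40 in experiment 1, and 77.6% and 50.2% in experiment 2. CENPE turned to -0.0096 with the length trend removed, and CENPF and TOP2A turned to -0.14 and -0.11 with that trend removed. The cause was not tested. Of the 38 values from 1 experiment alone, 7 had the other sign than the fitted change: MKI67, TOP2A, CENPE, CENPF, FOXM1 and CCND1 were at -0.20, -0.30, -0.17, -0.22, -0.18 and -0.01 without experiment 2, and MCM3 was at 0.02 without experiment 1. The 95% intervals of 44 of 45 genes included 0, and over all genes tested 3.41% of intervals lay wholly above 0 and 1.13% wholly below.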
